A study of Mus musculus with 3 samples.

Results

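The nuclear genes for subunits of the mitochondrial respiratory chain and ATP synthase were followed through the cell types of the lumbar spinal cord. Members were taken by gene symbol: genes named Nduf with the letter a, b, c, s or v and a number (complex I), Sdha to Sdhd (complex II), names beginning with Uqcr and Cyc1 (complex III), names beginning with Cox4 to Cox8 (complex IV) and names beginning with Atp5 (complex V), without pseudogenes. The rule found 84 members among the 31040 genes of the count table, of which 36 belong to complex I, 4 to complex II, 9 to complex III, 18 to complex IV and 17 to complex V. By its symbol Ndufa4 was counted with complex I, although its protein is now placed in complex IV, and the rule also took in Cox7a2l, a factor that joins complexes III and IV, and Atp5s, which is not a fixed subunit of ATP synthase.

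Complexes I to IV pass electrons from NADH and succinate to oxygen. Complexes I, III and IV pump protons across the inner mitochondrial membrane as they do so, whereas complex II does not, and complex V, the ATP synthase, uses the proton gradient to make ATP. The subunits that carry out the core steps of proton pumping are partly encoded by mitochondrial DNA, whereas all members described here are encoded in the nucleus, translated in the cytoplasm and imported. In the spinal cord oxidative phosphorylation supplies the ATP for ion pumping in neurons, and vacuolated mitochondria in motor neurons are a known feature of SOD1G93A mice.

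Single-nucleus RNA sequencing was performed on lumbar spinal cord of 12 mice at day 90, a stage around the onset of symptoms. SOD1G93A mice (strain B6.Cg-Tg(SOD1*G93A)1Gur/J) carry many copies of a human SOD1 gene with a mutation of familial ALS under its own promoter, and their littermates without the transgene on the C57BL/6J background were the wild-type (WT) controls, with 3 females and 3 males of each genotype. Nuclei were tagged per mouse with hashtag antibodies and sequenced in 3 pools (A, B and C), each with 1 mouse of every sex and genotype, so that the mouse was the replicate and p-values measured the spread between mice. The table held 14662 nuclei, 548 to 2259 per mouse, with 6411715 to 36668441 unique molecular identifiers (UMIs, single captured RNA molecules) per mouse, and 15 cell barcodes occurred in more than 1 pool.

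All levels are CPM, the UMIs of a gene scaled to 1000000 UMIs of that mouse and cell type. The cell types were those deposited by the authors, and the summed level of 3 markers was highest in the type they mark for 10 of 10 types, over all mice. Some types also held markers of others. The microglial markers (Cx3cr1, Csf1r and Ptprc) were at 80.9 CPM in microglia and 64.2 in ependymal nuclei, and microglia had the neuronal markers (Grin1, Rbfox3 and Camk2a) at 518 CPM, where neurons had 795. The OPC markers (Tnr, Vcan and Cspg4) were at 1226 CPM in motor neurons and 672 in microglia, where OPCs had 3719. Schwann and meningeal nuclei had the astrocyte markers (Aqp4, Aldh1l1 and Gfap) at 524 CPM, where astrocytes had 1433, and the neuronal markers at 440. Mog, a myelin gene of oligodendrocytes, was at 129 CPM in Schwann and meningeal nuclei and at 245 in microglia, where oligodendrocytes had 580 CPM. Mag, which Schwann cells also make, was at 181, 179.6 and 413 CPM in these types. Mog and Mag are single markers that need not stand for the full oligodendrocyte list, whose level is not reported here. Of the markers of Schwann cells, Pmp22 was at 115.6 CPM under the Schwann and meningeal label, its highest level, whereas Prx had 7 UMIs there (2.15 CPM) and was higher in endothelial nuclei (3.86 CPM). Sod1, whose reads can include the human transgene, checked the labels: in astrocytes it lay at 58.5 to 278.8 CPM (median 109) in WT and 353 to 1362 CPM (median 612) in SOD1G93A mice, and in motor neurons at 5.58 to 41.5 CPM (median 14.8) and 72.3 to 768 CPM (median 169). The genotypes did not overlap for Sod1 in either type, nor in endothelial nuclei, Schwann and meningeal nuclei or microglia. They overlapped in neurons (28.6 to 84.9 CPM in WT and 63.4 to 229.5 in SOD1G93A mice) and oligodendrocytes, each higher in 6 of 6 pairs, in OPCs (5 of 6 pairs), and in ependymal nuclei and fibroblasts.

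The members together held 395706 UMIs, 0.192% of the 206486779 UMIs in the table. Complex I took 37.1% of the member UMIs, complex II 7.15%, complex III 9.42%, complex IV 17.1% and complex V 29.2%. Of the 84 members, 77 had over 200 UMIs, 5 had between 1 and 200, and 2 had 0. Those with few UMIs were Cox6b2 (147 UMIs), Cox7a1 (78), Cox8b (19), Cox6a2 (13) and Cox8c (3), all isoforms of complex IV subunits known from heart, skeletal muscle or testis.

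Cox4i1, the general isoform of the complex IV subunit that stabilises its catalytic core, and Ndufa13, a subunit of complex I, were listed at 0 UMIs in every mouse. In the GENCODE annotation of GRCm38, Cox4i1 (chr8:120668222-120674207, plus strand) and Ndufa13 (chr8:69894180-69902558, minus strand) lie wholly inside another gene of the same strand, Gm20388 and Yjefn3. Among protein-coding genes inside other genes on the same strand, 417 of 424 (98.3%) were listed at 0 UMIs, compared with 10.3% of 20295 genes without such an overlap, so the value of 0 for Cox4i1 and Ndufa13 is no measure of their expression. Ndufb9, Ndufb8 and Ndufb2 shared 62.9%, 62.0% and 37.2% of their length with another gene of the same strand and may be undercounted. The table had 2 rows for Atp5o, the peripheral-stalk subunit of ATP synthase, with 28459 and 634 UMIs. The annotation has an Atp5o gene at chr16:91684398-91926982 (ENSMUSG00000116933.1) and another at chr16:91925214-91931687 (ENSMUSG00000022956.11), and the rows could not be matched to them. The row with more UMIs is called Atp5o and the other Atp5o.1 in what follows, and reads could be split between them.

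Respiratory chain genes share promoter motifs bound by NRF1, GABPA and YY1, and these were sought in the RefSeq promoter windows of GRCm38.p6, which cover 250 bases before and 50 bases after the start of a gene. A window was found for 67 of the 84 members, 2 of them by a synonym. The letters GCGCATGCG of the NRF1 motif stood in 8 of the 67 members (11.9%) and in 1.95% of all 27025 genes with a window, both strands read. CCGGAAG, bound by GABPA and other ETS factors, stood in 16 members (23.9%, against 9.93% of all genes), and AAGATGGCG of YY1 in 7 members (10.4%, against 1.64%). TCAAGGTCA, the motif of the oestrogen-related receptors, was found in 2 members (2.99%, against 0.466%), and the SP1 letters GGGCGG in 28 members (41.8%, against 38.2%). At least 1 of the NRF1, GABPA and YY1 motifs was in 26 members (38.8%) and in 12.7% of all genes. A match of letters is a description and not evidence that a factor binds there.

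Sequence before the RefSeq start is shown for 4 members that are taken up below and hold NRF1 or GABPA letters there: Ndufa11, a subunit of the membrane arm of complex I that was the only member to pass the test between genotypes, Cox6a1, the general isoform of a regulatory complex IV subunit, Atp5e, the epsilon subunit of the ATP synthase stalk, and Uqcr11, a small subunit of complex III. They were chosen among members with such letters, which most members with a window lacked. They run 5′ to 3′ on the strand of the gene in GRCm38.p6, from chr17:56717662-56717761 (Ndufa11, plus strand), chr5:115348959-115349130 (Cox6a1, minus strand), chr2:174464102-174464213 (Atp5e, minus strand) and chr10:80406822-80406921 (Uqcr11, minus strand). Capitals mark the letters of the NRF1 motif in Ndufa11 and near the beginning of Cox6a1, and the letters of the GABPA motif near the end of Cox6a1, in Atp5e and in Uqcr11. The NRF1 letters nearly mirror themselves, so that matches on both strands overlap by all but 1 base. The GENCODE starts differ from those of RefSeq, so that the last 23 bases printed for Cox6a1, which hold its GABPA letters, lie inside the GENCODE gene, as do the last 4 for Atp5e and the last 9 for Uqcr11, whereas none do for Ndufa11.
Ndufa11: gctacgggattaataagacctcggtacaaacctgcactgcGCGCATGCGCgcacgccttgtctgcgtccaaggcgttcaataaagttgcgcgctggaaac
Cox6a1: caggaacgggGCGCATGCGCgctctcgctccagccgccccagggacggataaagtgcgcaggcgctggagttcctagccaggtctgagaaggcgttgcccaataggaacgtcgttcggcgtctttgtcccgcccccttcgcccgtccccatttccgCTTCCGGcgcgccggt
Atp5e: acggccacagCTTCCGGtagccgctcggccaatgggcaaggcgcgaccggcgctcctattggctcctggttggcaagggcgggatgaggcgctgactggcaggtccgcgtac
Uqcr11: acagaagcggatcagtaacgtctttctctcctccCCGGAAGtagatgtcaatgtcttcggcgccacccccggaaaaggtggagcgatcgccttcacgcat

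In WT mice the summed level of the members was highest in Schwann and meningeal nuclei and lowest in motor neurons. It was 9781 CPM ± 2912 (SD, n = 6) in Schwann and meningeal nuclei, 6409 ± 1786 in endothelial nuclei and 3355 ± 587 in astrocytes. Fibroblasts followed with 3075 ± 1205 (n = 5) and ependymal nuclei with 2462 ± 694 (n = 5), both from few nuclei. Oligodendrocytes (1565 ± 211), neurons (1533 ± 192), oligodendrocyte precursors (OPCs, 1459 ± 177) and microglia (1374 ± 175) lay close together, and motor neurons were at 1117 ± 203, measured in 44 nuclei with 4 to 11 per mouse. The ranges of WT mice overlapped between all neighbours in this order except endothelial nuclei (4621 to 8633) and astrocytes (2591 to 4137). Schwann and meningeal nuclei, with the highest sum, were shallow and held markers of astrocytes, neurons and oligodendrocytes, as given above. Their WT mice had 14464 to 257747 UMIs in 13 to 94 nuclei, and the part of RNA of other cell types in the sum was not tested. UMIs per nucleus ran from 1113 to 3222 in these WT mice, 12841 to 17576 in neurons, 61051 to 111032 in microglia and 24079 to 92403 in motor neurons. The types with the lowest sums were thus the deepest per nucleus. Endothelial nuclei (8140 to 10692) were however deeper than astrocytes (4251 to 7683). The part of depth per nucleus in the order was not tested.

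**Figure D1:**
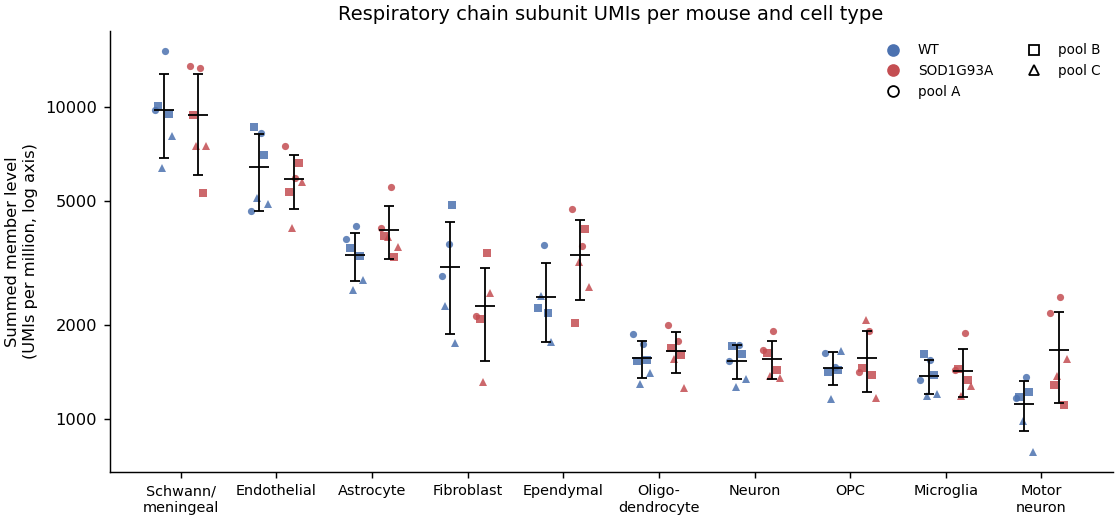
Summed CPM of the respiratory chain members (log axis) in each cell type, with 1 point per mouse coloured by genotype and shaped by pool, and the mean ± SD of each genotype. Schwann and meningeal nuclei (WT 6369 to 15037 CPM) and endothelial nuclei (4621 to 8633) stand above neurons (1268 to 1726), and WT and SOD1G93A mice overlap in every type.

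Single members mostly shared the highest type of the sum. Of the 77 members with over 200 UMIs, 64 had their highest WT mean in Schwann and meningeal nuclei when the 8 types without fibroblasts and ependymal nuclei were compared. Endothelial nuclei had the highest mean for 10 members (Atp5g2, Atp5j, Atp5o.1, Cox4i2, Cox7a2l, Ndufa7, Ndufb3, Ndufb7, Ndufs6 and Uqcrb) and astrocytes for 3 (Atp5o, Cox7b2 and Ndufs4). The lowest mean was in motor neurons for 50 members, in microglia for 13, in OPCs for 9 and in endothelial nuclei for 2. Both ends were those of the sum for 43 of the 77. The complexes did not rise by the same factor: complex II, the succinate dehydrogenase, took 4.0% of the member UMIs in Schwann and meningeal nuclei, 4.6% in endothelial nuclei, 6.7% in astrocytes and 8.0% in neurons, while complex IV took 23.4%, 21.0%, 19.2% and 15.1%.

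The sums and shares were not tested. Single genes were tested by comparing the UMIs of a type, summed per WT mouse, with those of neurons other than motor neurons in the same 6 mice with limma voom, with a term for the mouse and Benjamini-Hochberg adjustment over all genes tested (FDR). A gene was called at FDR < 0.1, and differences are log2 values relative to neurons. Astrocytes had 71 of 76 members called higher and 0 lower by this test (edgeR and DESeq2 called 1 lower), against 36.2% of all genes called higher and 34% lower, and the median difference was 1.23 for the members and 0.01 for all genes. In endothelial nuclei 64 of 77 members were higher and 7 lower (all genes 36% and 44.4%), with medians of 2.03 and −0.21. In Schwann and meningeal nuclei 67 of 75 were higher and 2 lower (all genes 31.1% and 30.2%), with medians of 2.55 and −0.03. Without scaling factors the medians of all genes moved to 0.28 in endothelial and 0.65 in Schwann and meningeal nuclei and those of the members to 2.51 and 3.18. Oligodendrocytes had 17 of 76 members higher and 8 lower (all genes 36.9% and 35.1%), with medians of 0.14 and 0.02.

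The members that differed most from neurons included small subunits of complexes III, IV and V. Cox8a, a small subunit of complex IV, was at 82.5 to 180.9 CPM (median 137) in WT astrocytes and 18.3 to 43.1 CPM (median 34.2) in WT neurons. Endothelial nuclei held it at 165 to 349 CPM (median 223) and Schwann and meningeal nuclei at 313 to 927 CPM (median 472). No mouse of these 3 types overlapped with neurons, and the log2 difference was 1.97 in astrocytes (SE 0.09, limma FDR = 2.38e-13) and 3.53 in Schwann and meningeal nuclei (SE 0.24, limma FDR = 1.91e-11).

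Atp5e was at 5.25 to 11.9 CPM (median 6.53) in WT neurons, 18.6 to 76.6 CPM (median 37.9) in astrocytes, 113 to 219.7 CPM (median 170) in endothelial nuclei and 62.6 to 346 CPM (median 152) in Schwann and meningeal nuclei. Again neurons did not overlap with the other types, and the log2 differences were 2.38 (SE 0.15), 4.16 (SE 0.26) and 3.90 (SE 0.29). Uqcr11 was likewise called higher in the 3 types, with log2 differences of 2.25, 3.77 and 3.86. Ndufa7, an accessory subunit of the matrix arm of complex I, was at 119 to 227 CPM (median 178) in endothelial nuclei and at 10.4 to 15.1 CPM (median 12.8) in neurons, a difference of 3.34 (SE 0.14, limma FDR = 8.19e-10) without overlap. In astrocytes Atp5g2, 1 of the 3 genes for the c-ring subunit, differed by 1.86, and in endothelial nuclei Uqcrq, a small subunit of complex III, by 3.05. Ndufa4 and Atp5g3, another c-ring gene, differed by 3.51 and 3.62 in Schwann and meningeal nuclei.

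Core members of the complexes differed among themselves. Of complex I, Ndufs1, the large iron-sulfur subunit, was called higher in astrocytes (0.27) and lower in endothelial nuclei (−0.75), and was −0.23 in Schwann and meningeal nuclei without passing the test. Ndufv1, which binds NADH, was called higher in all 3 types, by 0.97, 1.98 and 2.55 in astrocytes, endothelial and Schwann and meningeal nuclei. Of complex II, the flavoprotein Sdha was called higher by 0.76, 0.71 and 1.03, and the iron-sulfur subunit Sdhb by 0.64, 0.39 and 1.06. In complex III the core protein Uqcrc1 was at 0.29, 0.17 and 0.95, with the endothelial value not called, whereas Uqcrfs1, the Rieske iron-sulfur protein, was called at 2.02, 2.56 and 3.57 and Cyc1, cytochrome c1, at 1.40, 1.70 and 2.46. Cox5a, an early-assembled complex IV subunit, was called at 0.97, 1.59 and 2.80. In the catalytic head of ATP synthase Atp5a1 (alpha) was called at 1.00, 1.30 and 2.41, Atp5b (beta) at 1.44, 2.10 and 2.70 and Atp5c1 (gamma) at 0.96, 0.68 and 1.20. The medians by complex were 1.16, 2.0 and 2.55 for complex I, 0.72, 0.76 and 1.05 for complex II, 1.45, 2.56 and 2.99 for complex III, 1.33, 2.17 and 2.49 for complex IV and 1.31, 1.80 and 2.63 for complex V. Gene length differed between the complexes, and its part in these medians was not tested.

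A few members went the other way. Atp5o was lower in endothelial nuclei (12.1 to 34.0 CPM, median 29.8) than in neurons (89.8 to 176.9 CPM, median 129.7), by −2.77 without overlap, and by −1.88 in Schwann and meningeal nuclei (SE 0.33, limma FDR = 3.56e-05), where the mice spread from 0 to 79.6 CPM. The row Atp5o.1 instead had its highest WT mean in endothelial nuclei (6.60 CPM). Neither row could be matched to an annotated gene and reads could be split, so the values of Atp5o need not be those of the subunit. Ndufs4, a matrix-arm subunit of complex I whose loss causes Leigh syndrome, had almost the same level in every WT mouse for neurons, 118 to 133 CPM (median 126). It was at 45.1 to 124 CPM (median 92.0) in Schwann and meningeal nuclei, a called difference of −0.97 (SE 0.29, limma FDR = 0.00627), at −0.53 in endothelial nuclei, also called, and at −0.01 in astrocytes, not called. The other members called lower in endothelial nuclei were Ndufs1, Atp5s (−1.01), Ndufb2 (−0.53), Ndufa10, a complex I subunit (−0.48), and Cox7b2. The 7 lower calls fell to 3 without scaling factors, where the median of all genes also rose. That fall is therefore not read as a result about the members. Of the 5 astrocyte members not called, Atp5s (−0.34) and Ndufb2 (−0.15) lay lowest beside Ndufs4, and the others were Ndufa3 and Ndufa10.

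In oligodendrocytes the members of smallest p were Atp5g2 (0.79), Ndufa7 (0.57) and Ndufv3 (0.57), all called higher, and Atp5o (−0.61), Ndufs4 (−0.41) and the membrane subunit Atp5j2 (−0.79), all called lower. Of other core members Sdha (0.26) and Uqcrfs1 (0.46) were called higher and Uqcrc1 lower (−0.34). Sdhb was at −0.17 and Ndufs1 at 0.10 without a call.

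The difference from neurons followed the length of the gene. The 82 members with 1 annotated gene ranged from 0.953 to 105.38 kb with a median of 7.37 kb. Across members, the Pearson correlation of log10 length with the log2 difference was −0.58 in astrocytes (74 members), −0.65 in endothelial nuclei (75 members), −0.80 in Schwann and meningeal nuclei (74 members) and −0.50 in oligodendrocytes (74 members). Over all genes it was −0.24, −0.37, −0.60 and −0.10. The genes share the same libraries and are not independent, so these values are a description. Members under 10 kb had a median difference of 1.52 in astrocytes, 2.31 in endothelial nuclei and 3.13 in Schwann and meningeal nuclei, and the 4 members of 30 kb or more (Ndufs1, Ndufa10, Cox7b2 and Ndufs4) had 0.13, −0.64 and −0.39. Cox7b2 had 1 UMI in WT endothelial nuclei and 0 in WT Schwann and meningeal nuclei. Its fitted value in the latter is no measure of expression, and the median of −0.39 includes it. All genes under 10 kb had medians of 0.54, 1.16 and 1.54, and all genes of 30 kb or more −0.21, −0.69 and −0.60. Within the short genes the members therefore lay above the median of all genes, by a description without a test. In motor neurons the correlation with length was 0.08.

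**Figure D2:**
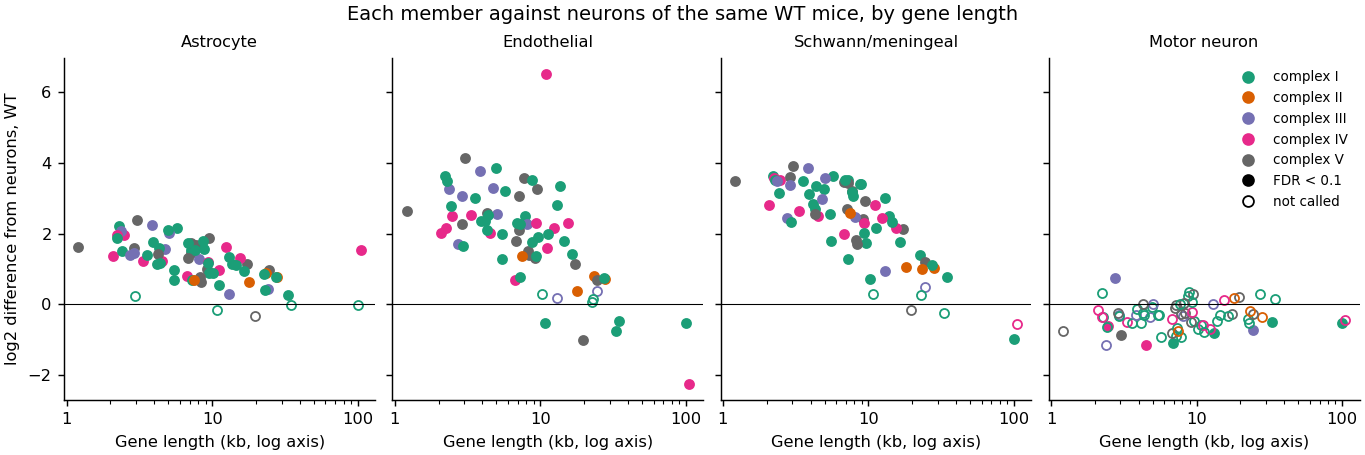
Log2 difference from neurons in WT mice against gene length in kb (log axis) for each member in astrocytes, endothelial nuclei, Schwann and meningeal nuclei, and motor neurons, with filled points for members at FDR < 0.1. Values fall with length in the first 3 panels, where the 4 genes of 30 kb or more lie low except Cox7b2 in astrocytes (1.53), with Pearson correlations of −0.58, −0.65 and −0.80, and no such slope is seen in motor neurons (0.08).

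Mitochondrial RNA, the RNA of mitochondrial DNA that reaches a nuclear preparation from outside the nucleus, differed between the types. Its percent per nucleus averaged 4.83 in WT ependymal nuclei, whose member sum lay below that of astrocytes, 3.44 in endothelial nuclei, 2.77 in Schwann and meningeal nuclei, 1.62 in astrocytes, 0.543 in oligodendrocytes and 0.375 in neurons. Cytosolic ribosomal protein genes, another group of short genes with abundant cytoplasmic mRNA, were called higher for 68 of 71 genes in astrocytes (median 1.85), 74 of 74 in endothelial nuclei (4.11) and 70 of 70 in Schwann and meningeal nuclei (3.14). When only nuclei with at most 1% mitochondrial UMIs were compared, astrocytes (531 WT nuclei) had 64 of 76 members called higher and 1 lower, against 30.6% of all genes higher and 29.1% lower. Schwann and meningeal nuclei (69 WT nuclei) had 63 of 75 higher and 3 lower, against 34.9% and 24.8% of all genes, with a median of 2.03 against 0.21. That fit was shallow too, with 4 to 20 nuclei per WT mouse and 186997 UMIs in all. The part of low depth in its values was not tested. In endothelial nuclei 34 of 72 were called higher and 3 lower, against 29.8% and 18.4% of all genes, with a median of 0.86 against 0.14. That endothelial fit rested on 7 nuclei of 4 WT mice with 84544 UMIs in all, so that its values say little of the type.

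Other genes of mitochondrial energy metabolism were counted from fixed lists. The shares of all genes called higher and lower in the same fits were 36.2% and 34% in astrocytes, 36% and 44.4% in endothelial nuclei and 31.1% and 30.2% in Schwann and meningeal nuclei. The assembly factors of the respiratory chain, which build the complexes but are not part of them, had 21 of 40 genes higher and 5 lower in astrocytes (median 0.41), 19 of 43 higher and 13 lower in endothelial nuclei, and 11 of 37 higher and 9 lower in Schwann and meningeal nuclei (median −0.08). Genes of the tricarboxylic acid cycle had 12 of 18 higher and 1 lower in astrocytes (median 0.45), and 6 higher and 8 lower in endothelial nuclei, a share near that of all genes. Glycolysis had 15 of 19 genes higher and 3 lower in astrocytes (median 1.56). The electron carriers and adenine nucleotide transporters had 11 of 14 higher and 0 lower, regulators of mitochondrial biogenesis 11 of 20 higher and 3 lower, and proteasome subunits 14 of 33 higher and 6 lower (median 0.21) in astrocytes. In endothelial nuclei proteasome subunits had 28 of 38 higher and 5 lower (median 1.34), the carriers 9 of 15 higher and 1 lower (1.32) and glycolysis 11 of 19 higher and 6 lower (1.02). In Schwann and meningeal nuclei the counts were 22 of 33 higher and 3 lower for the proteasome (median 1.22), 10 of 13 higher and 1 lower for the carriers (1.95) and 13 of 19 higher and 2 lower for glycolysis (2.02).

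In WT mice, motor neurons were the type with the lowest sum. Of 75 members tested in WT mice, 8 were called lower and 1 higher than in other neurons, against 15.6% of all genes called lower and 17.1% higher, and the medians were −0.34 for the members and −0.03 for all genes. The lower count was 20 without scaling, 26 when no genes were filtered out and 15 with no term for the mouse. It ran from 4 to 9 when 1 mouse was dropped, and was 4 without WT female B, female C or male A. The shares of all genes called lower in these other fits are not given, so their counts are not read as a result about the members. Ndufs4 was at 47.4 to 94.9 CPM (median 85.3) in motor neurons and 118 to 133 CPM in neurons, without overlap (log2 difference −0.51, SE 0.18, limma FDR = 0.0523). Cox7a2, the general isoform of a complex IV subunit, was at 0 to 11.8 CPM (median 8.38, 19 UMIs) against 13.3 to 21.1 CPM (median 18.5), also without overlap (−1.15, SE 0.36, limma FDR = 0.0346). The other members called lower were Uqcrc2 (−0.74), Ndufa8 (−0.81), Ndufb8 (−1.11), Cox8a (−0.60), Ndufs1 (−0.50) and Atp5e (−0.87).

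Cyc1 was the 1 member called higher in motor neurons, at 8.37 to 32.5 CPM (median 10.2, 37 UMIs) against 6.45 to 14.3 CPM (median 9.89) in neurons. Both pool A mice lay near 30 CPM and the other 4 overlapped with neurons (log2 difference 0.75, SE 0.29, limma FDR = 0.0849). The call was kept in 2 of 6 fits that left out 1 mouse each and lost in 4 (lowest FDR 0.0575, highest 0.212), and it was lost under edgeR and DESeq2. Next in order were Ndufb6 (0.36) and Ndufa2 (0.32), not called. Ribosomal protein genes were called lower for 19 of 68 genes and higher for 0 in the same comparison (median −0.45).

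Among other neurons the sums differed little. Over the 9 sub-types, the WT mean ran from 1446 CPM in the sub-type labelled VC to 1678 CPM in MI, and neighbouring sub-types overlapped throughout. No member was called between genotypes in any of the 9 by limma, edgeR or DESeq2. The share of all genes called by limma was 0.06% in MI, 0.0329% in DE, 0.0296% in VC, 0.027% in the unclear neurons, 0.0243% in VM, 0.0231% in VI, 0.019% in DI, 0.00871% in VE and 0% in ME. At an unadjusted p under 0.05, 14 of 418 tests of members passed over the 9 sub-types, compared with 4.54% of all tests. Cox7b2 in VE neurons came nearest to a call, with a log2 difference of 1.30 (SE 0.34, limma FDR = 0.776).

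Several subunits of complex IV and the c-ring of ATP synthase are encoded by more than 1 gene with different tissue patterns. Levels of different genes were compared per kb of gene length. In WT neurons the general isoforms led, with 6.20 CPM per kb for Cox6a1 and 0.043 for Cox6a2, 1.90 for Cox6b1 and 0.291 for Cox6b2, 3.94 for Cox7a2 and 0.151 for Cox7a1, 4.47 for Cox7b and 0.05 for Cox7b2, and 12.9 for Cox8a, 0.078 for Cox8b and 0.008 for Cox8c. Not divided by length, Cox7b and Cox7b2 were at 30.2 and 5.25 CPM in WT neurons, a smaller gap. The 3 c-ring genes, which encode the same mature protein, were at 2.04 (Atp5g1), 1.28 (Atp5g2) and 4.12 (Atp5g3) CPM per kb in neurons. In Schwann and meningeal nuclei they were at 34.0, 15.6 and 75.3, in endothelial nuclei at 9.98, 16.9 and 26.9, and in astrocytes at 5.42, 4.80 and 14.6. The order of these genes depends on the division by length. On the CPM scale, not divided by length, the WT means of Atp5g1, Atp5g2 and Atp5g3 were 13.9, 12.1 and 11.9 in neurons, 231.7, 148 and 217 in Schwann and meningeal nuclei, 68.1, 160.1 and 77.5 in endothelial nuclei and 37.0, 45.5 and 42.0 in astrocytes.

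Cox4i2 (chr2:152754173-152765037, plus strand), the isoform of Cox4 known from lung and hypoxic cells, was largely found under the endothelial label, which held 255 of its 367 UMIs. WT endothelial nuclei had it at 36.4 to 109.8 CPM (median 66.2) and WT neurons at 0.395 to 0.59 CPM (median 0.495). The groups were far apart, by a log2 difference of 6.53 (SE 0.28, limma FDR = 1.3e-09). Pdgfrb, a pericyte marker, was among the 3 markers used here for this label. Nuclei with a UMI of Pdgfrb carried 229 of the 255 UMIs of Cox4i2 in 263 nuclei, and nuclei without it 26 UMIs in 238 nuclei. In WT mice this was 87.8 CPM ± 30.3 (n = 6) with and 23.0 ± 25.2 without a Pdgfrb UMI, where the median depth was 10302 and 5038 UMIs. The summed level of all members was 6726 ± 1917 and 5584 ± 1685 CPM in these nuclei. The endothelial marker Flt1 was at 4627 CPM with and 5096 CPM without a Pdgfrb UMI, over all mice. This split was chosen after the values had been seen and is a description. The part of pericytes under the endothelial label was not tested.

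Cox7b2 (chr5:71442824-71548205, minus strand), known as the testis isoform of Cox7b, was higher in astrocytes than in neurons. It was at 10.3 to 27.5 CPM (median 18.4) in WT astrocytes and 4.09 to 6.46 CPM (median 4.95) in WT neurons, without overlap (log2 difference 1.53, SE 0.21, limma FDR = 2.47e-06). Astrocytes thus had 0.169 CPM per kb of this long gene. WT endothelial nuclei had 1 UMI against 516 in neurons, a ratio of 0.0757 per total UMI with an exact 95% counting interval of 0.00191 to 0.423, and it was called lower there. Schwann and meningeal nuclei of WT mice had 0 UMIs, a level below the 4.11 CPM that 3 UMIs would give there, and those of SOD1G93A mice had 20 UMIs (0 to 19.6 CPM, median 7.05) at a greater depth. Among neurons its WT level was highest in MI (10.3 ± 2.18 CPM) and was 2.44 ± 1.11 CPM in VE.

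**Figure D3:**
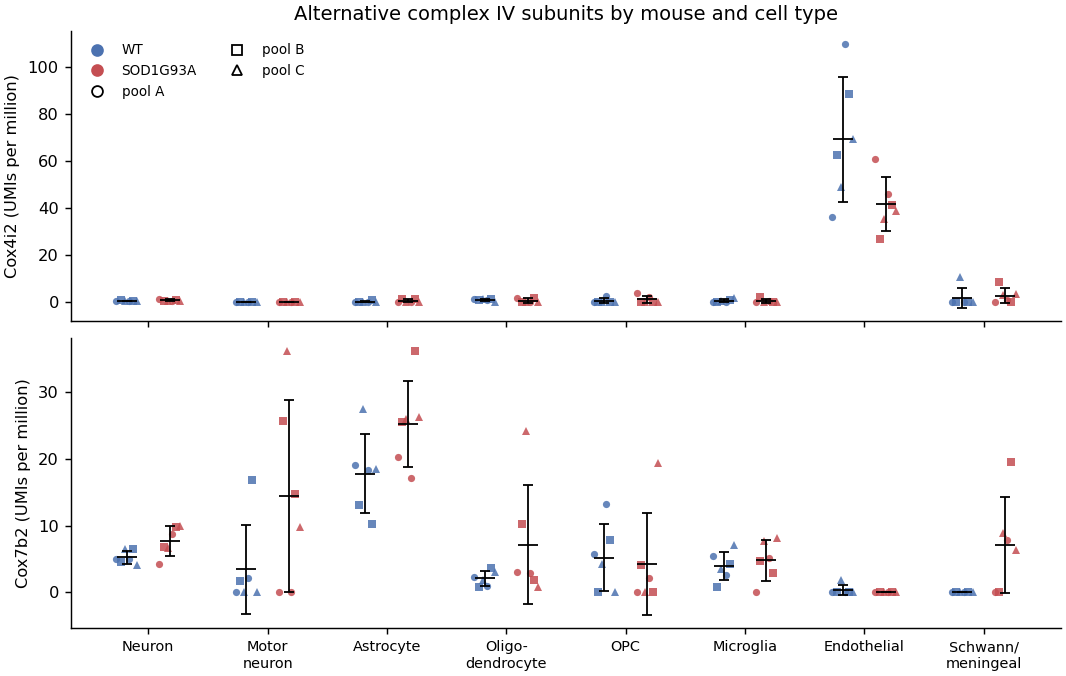
CPM of Cox4i2 and Cox7b2 in 8 cell types, with 1 point per mouse coloured by genotype. Cox4i2 stands above the other types in endothelial nuclei (WT 36.4 to 109.8 CPM), and Cox7b2 stands highest in astrocytes (WT 10.3 to 27.5 CPM).

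Genotype was compared next, to ask whether the members differed between SOD1G93A and WT mice within a type, as the mean of the differences in females and in males with a term for the pool. In astrocytes 1 of 73 members tested was called higher and 0 lower, against 1.38% of all genes called higher and 0.909% lower. That member was Ndufa11 (chr17:56717767-56722141, plus strand), for which NRF1 letters are shown above, as they are for Cox6a1. Ndufa11 was at 6.86 to 25.5 CPM (median 16.3) in WT and 20.0 to 41.3 CPM (median 31.2) in SOD1G93A mice, from 228 UMIs in all. The genotypes overlapped, and the SOD1G93A mouse was higher in 5 of the 6 pairs of 1 sex and pool. The log2 difference was 0.91 (SE 0.25, limma FDR = 0.0773).

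The call for Ndufa11 depended on single mice and on the settings. Of 12 fits that left out 1 mouse each, 4 kept it and 8 lost it, and the FDR ran from 0.0184 to 0.345, both reached by dropping an SOD1G93A mouse of pool A, the female and the male. It was 0.115, 0.241, 0.274 and 0.151 when the WT mice female B, female C, male A or male C were dropped, and 0.203, 0.21 and 0.148 when SOD1G93A mice female B, female C or male C were. With edgeR it was 0.122, and with no term for the pool 0.131. Over the 12 fits that left out 1 mouse, the count of members called ran from 0 to 6, and the shares of all genes in them are not given.

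Most other members leaned the same way in astrocytes without passing the test. The log2 difference was above 0 for 59 of 73 members, with a median of 0.24 against 0.02 for all genes (3 of the 73 passed the filter by SOD1G93A mice alone and 69 by each genotype on its own), and 16 of 73 had an unadjusted p under 0.05 and were higher, compared with 7.77% of all genes. None was lower at that p, compared with 5.82% of all genes. Medians by complex were 0.21 for complex I, 0.07 for complex II, 0.30 for complex III, 0.28 for complex IV and 0.16 for complex V. The summed level was 2591 to 4137 CPM (median 3426) in WT and 3294 to 5513 CPM (median 3838) in SOD1G93A mice. These ranges overlapped, and SOD1G93A was higher in 5 of 6 pairs. The highest SOD1G93A mouse, the male of pool A at 5513 CPM, stood apart from the nearest at 4082 CPM.

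After Ndufa11 the members of smallest p in astrocytes were Ndufb10, of the far end of the complex I membrane arm, and Cox7c, a small structural subunit of complex IV. Ndufb10 was at 16.5 to 41.5 CPM (median 25.1) in WT and 29.9 to 57.6 CPM (median 42.9) in SOD1G93A mice, higher in 6 of 6 pairs but with overlap between the groups (0.59, limma FDR = 0.155). Cox7c was at 51.6 to 139 CPM (median 92.2) and 96.1 to 195 CPM (median 124.7), likewise overlapping (0.44, limma FDR = 0.156). On the lower side Ndufa10 (−0.38, limma FDR = 0.402) and Ndufa5 (−0.25) were among the members of smallest p, and neither passed.

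Astrocytes also differed in mitochondrial RNA. Its mean percent per nucleus was 1.34 to 1.84 in WT mice (median 1.61) and 2.20 to 2.82 in SOD1G93A mice (median 2.32), without overlap. Ribosomal protein genes had 4 of 62 called higher and 0 lower, with a median of 0.32. With the mitochondrial percent of each mouse as a further covariate, 0 astrocyte genes of any kind were called instead of 214, the member median was −0.02 and Ndufa11 was at −0.13 (limma FDR = 0.994). In nuclei with at most 1% mitochondrial UMIs, 102 astrocyte genes and 0 members were called, the member median was 0.19 and Ndufa11 was at 1.40 (limma FDR = 0.101). Because the percent did not overlap between genotypes, its part in the astrocyte differences and that of genotype cannot be told apart in the model with the covariate.

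**Figure D4:**
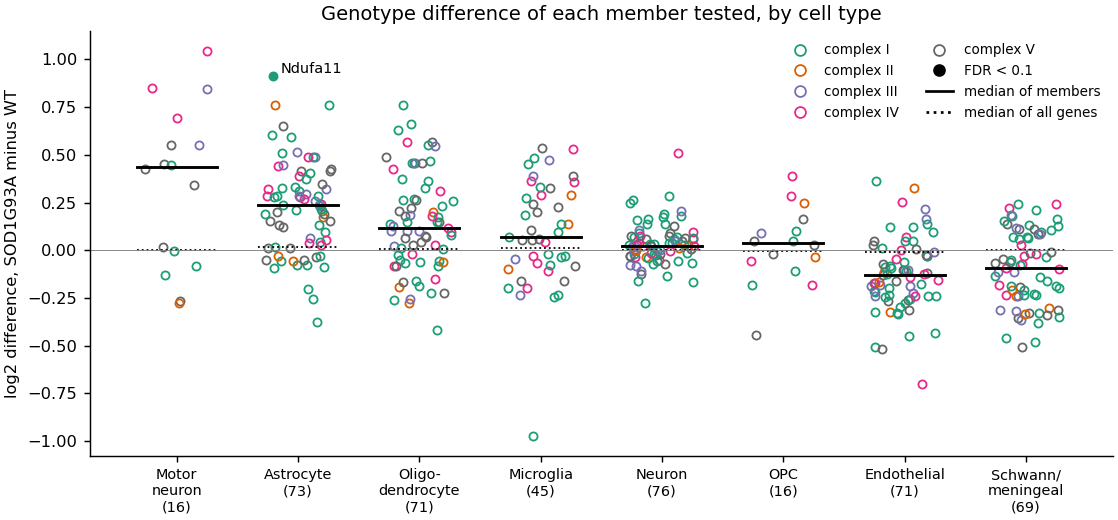
Log2 difference between SOD1G93A and WT mice for every member tested in each cell type, with the medians of the members and of all genes. The 1 filled point, Ndufa11 in astrocytes at 0.91, is the member with FDR < 0.1. The member median is 0.24 in astrocytes and 0.02 in neurons, and in motor neurons 8 of the 16 members shown passed the filter by SOD1G93A mice alone.

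In motor neurons 0 of 16 members tested were called with limma, edgeR or DESeq2, against 3.07% of all genes with limma. Here 4 members were higher at an unadjusted p under 0.05, compared with 7.44% of all genes. The filter on low counts, which asked for 34.6 CPM in 3 mice, bears on these counts: 8 of the 16 members passed it by SOD1G93A mice alone, 2 by WT mice alone and 5 by each genotype on its own, where 748, 229 and 3782 of all 5118 genes did. No lean of the 16 is therefore read from their values. The 4 were Cox7c (0.69, limma FDR = 0.195), the complex III core protein Uqcrc2 (0.84, limma FDR = 0.248), Cox5a (0.85, limma FDR = 0.255) and Cox6a1 (1.05, limma FDR = 0.273). Cox6a1 (chr5:115345642-115348981, minus strand), with both NRF1 and GABPA letters before its RefSeq start, was at 3.76 to 23.0 CPM (median 11.7) in WT and 18.5 to 81.1 CPM (median 28.8) in SOD1G93A mice, overlapping, and had 0 WT mice at the level of the filter. Atp5o (−0.27), Sdha (−0.28) and Ndufa10 (−0.13) were the members of smallest p on the lower side.

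The motor neuron sums rested on few nuclei. SOD1G93A mice had 23 motor neuron nuclei, 1 to 6 per mouse. The summed level was 785 to 1366 CPM (median 1172) in WT and 1111 to 2456 CPM (median 1464) in SOD1G93A mice, overlapping, and higher in 5 of 6 pairs. Mitochondrial RNA was at 0.077% to 0.947% in WT and at 2.03, 1.65 and 0.0578% in female and 2.63, 1.87 and 0.254% in male SOD1G93A mice of pools A, B and C. The 2 SOD1G93A mice with the highest sums, the female (2178 CPM) and the male (2456 CPM) of pool A, also had the highest mitochondrial percent.

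**Figure D5:**
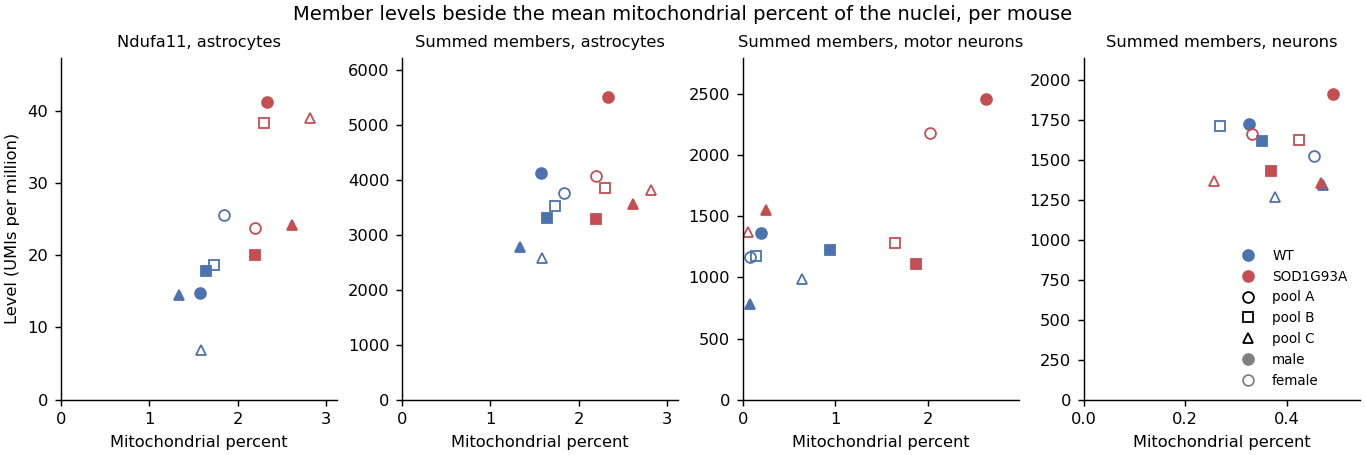
CPM of Ndufa11 in astrocytes and summed CPM of the members in astrocytes, motor neurons and neurons against the mean mitochondrial percent per nucleus, with 1 point per mouse coloured by genotype. In astrocytes the percent separates the genotypes (1.34 to 1.84 and 2.20 to 2.82), and in motor neurons the 2 highest sums (2178 and 2456 CPM) belong to the mice with the highest percent.

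The other types had no member called by genotype with limma, edgeR or DESeq2. Oligodendrocytes had 0 of 71 called (0.0475% of all genes), with 11 members higher at an unadjusted p under 0.05 compared with 2.43% of all genes, and a median of 0.12. Cox6a1 was the member of smallest p there, at 15.3 to 31.3 CPM (median 16.5) in WT and 17.0 to 44.7 CPM (median 29.7) in SOD1G93A mice, overlapping (0.57, SE 0.16, limma FDR = 0.793). It was followed by Atp5g1 (0.57) and Ndufb8 (0.63), and the lower members of smallest p were Atp5o (−0.22), the membrane anchor Sdhc (−0.28) and Sdha (−0.19). Mitochondrial percent was 0.543 in WT and 0.537 in SOD1G93A oligodendrocytes. Ribosomal protein genes leaned the same way there, with 42 of 56 above 0, a median of 0.19 and 0 calls, where 50 of 71 members were above 0, and their part was not tested.

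Neurons had 0 of 76 called (0.0255% of all genes), 2 higher at an unadjusted p under 0.05 compared with 2.61% of all genes, and a median of 0.02. The summed level in neurons was 1268 to 1726 CPM (median 1574) in WT and 1357 to 1912 CPM (median 1530) in SOD1G93A mice. Cox7b2 had the smallest p, at 4.09 to 6.46 CPM (median 4.95) and 4.33 to 9.89 CPM (median 7.80), with overlap (0.51, SE 0.16, limma FDR = 0.763). Ndufb7 (0.28) and Ndufs5 (0.16) followed, and Ndufa3 (−0.28), Ndufb3 (−0.17) and Atp5s (−0.13) were the lower members of smallest p.

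In endothelial nuclei 0 of 71 members were called (0.0131% of all genes), the median was −0.13, 17 members were above 0 and 3 were lower at an unadjusted p under 0.05, compared with 2.32% of all genes. Ribosomal protein genes lay further down there, with 5 of 69 above 0, a median of −0.23 and 0 calls, and their part was not tested. In Schwann and meningeal nuclei 20 of 57 ribosomal protein genes were above 0 (median −0.06) and in microglia 21 of 26 (median 0.34). Cox4i2 was at 36.4 to 109.8 CPM (median 66.2) in WT and 26.9 to 61.0 CPM (median 40.2) in SOD1G93A mice, overlapping and lower in 5 of 6 pairs (−0.70, SE 0.23, limma FDR = 0.980). The other 2 were Ndufv2, an iron-sulfur subunit of complex I (−0.51), and Atp5g1 (−0.52), and Cox7a2 (0.25), Sdhd (0.32) and Ndufa12 (0.36) led the higher members. Schwann and meningeal nuclei had 0 of 69 called (0.036% of all genes), 1 at an unadjusted p under 0.05 (4.66% of all genes) and a median of −0.09, with Atp5c1 (−0.51), Ndufa7 (−0.48) and Atp5a1 (−0.35) as the lower and Cox6b1 (0.24), Ndufb3 (0.24) and Cox7a2l (0.22) as the higher members of smallest p.

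Microglia had 0 of 45 members called (0.0759% of all genes) and 4 at an unadjusted p under 0.05 (7.94% of all genes). The filter on low counts asked for 11.5 CPM in 3 mice there. Of the 45, 4 passed it by SOD1G93A mice alone, 1 by WT mice alone and 37 by each genotype on its own, where 478, 282 and 8057 of all 9218 genes did. No direction is therefore read from members near that level, Ndufa12 among them. Ndufa12, a matrix-arm subunit of complex I, was at 8.19 to 15.2 CPM (median 12.4) in WT and 0 to 12.3 CPM (median 6.69) in SOD1G93A mice, overlapping but lower in 6 of 6 pairs (−0.98, limma FDR = 0.310). Ndufs4 (−0.25) and Uqcrc2 (−0.23) followed, and Cox8a (0.53), the complex III hinge protein Uqcrh (0.47) and Atp5d (0.53), the delta subunit, were higher without a call. In OPCs 0 of 16 were called (0.0411% of all genes) and 0 had an unadjusted p under 0.05 (6.39% of all genes), with Atp5c1 (−0.44), Ndufs4 (−0.18) and Cox7c (−0.18) lower and Cox8a (0.39), Cox7b (0.28) and Sdhb (0.25) higher. In fibroblasts 1 member, Atp5o, passed the count filter (1.68, not called), and in ependymal nuclei 0 did, and 0% of all genes were called in either type.

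Sex made no called difference to any member in any type by limma, edgeR or DESeq2, where limma called 0.434% of all genes in microglia, 0.223% in endothelial nuclei, 0.212% in ependymal nuclei, 0.185% in OPCs, 0.178% in fibroblasts, 0.139% in astrocytes, 0.117% in motor neurons, 0.108% in Schwann and meningeal nuclei, 0.0701% in neurons and 0.057% in oligodendrocytes. At an unadjusted p under 0.05, 14 of 438 tests of members over the types passed, compared with 5.56% of all tests. Members lay to one side in some types without a call. Of the log2 differences, females minus males, 13 of 71 were above 0 in endothelial nuclei (median −0.13, with 5 lower and 0 higher at that p), 24 of 73 in astrocytes (−0.09) and 26 of 76 in neurons (−0.03), where the medians of all genes were between −0.01 and 0.01. Of all 7637 genes tested for sex in endothelial nuclei, 210 were lower and 236 higher at that p. The log2 differences between females and males of smallest p were those of Atp5e in astrocytes (0.49, limma FDR = 0.652) and Uqcr10, a small subunit of complex III, in endothelial nuclei (−0.56, limma FDR = 0.627). The difference of the genotype effect, males minus females, was called for 0 members, compared with 0.0586% of all genes in motor neurons, 0.0107% in astrocytes and 0% in the other types, and 15 of 438 tests of members passed at an unadjusted p under 0.05, compared with 3.11% of all tests. Ndufa4 in microglia came first by p (1.92, SE 0.51, limma FDR = 0.999), with the male SOD1G93A mouse of pool A at 37.7 CPM, followed by Uqcrh in microglia (1.27), Atp5g3 in astrocytes (1.01, limma FDR = 1.0) and Cox6a1 in oligodendrocytes (−0.96). Without calls, the members lay to one side in some types. In Schwann and meningeal nuclei 9 of 69 were above 0, with a median of −0.55 against 0.01 for all genes, in oligodendrocytes 18 of 71 (−0.20 against −0.01) and in microglia 34 of 45 (0.27 against 0.01). The summed level in Schwann and meningeal nuclei of pools A, B and C was 15037, 9472 and 8055 CPM in WT and 13264, 5291 and 7470 CPM in SOD1G93A males, and 9720, 10033 and 6369 CPM in WT and 13539, 9370 and 7470 CPM in SOD1G93A females. Males and females overlapped in each genotype, and the WT male of pool B had 13 nuclei.

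Among the regulators of respiratory chain genes, 2 fell in SOD1G93A astrocytes, of 15 biogenesis genes tested, compared with 0.909% of all genes. Ppargc1a, the coactivator PGC-1alpha that drives mitochondrial biogenesis, was at 248.8 to 342 CPM (median 309) in WT and 153 to 268 CPM (median 224) in SOD1G93A mice, overlapping and lower in 5 of 6 pairs (−0.53, SE 0.13, limma FDR = 0.0394), and the call was kept in 9 of 12 fits that left out 1 mouse (FDR 0.0222 to 0.138). Esrrg, an oestrogen-related receptor that binds PGC-1alpha, was at 608 to 972 CPM (median 795) and 394 to 739 CPM (median 626), lower in 6 of 6 pairs (−0.48, SE 0.13, limma FDR = 0.0738), and kept its call in 5 of 12 (FDR 0.0136 to 0.251). With the mitochondrial percent as a covariate Ppargc1a was at −0.83 and Esrrg turned to 0.13, neither called, and Ppargc1a was called at −0.59 in nuclei with at most 1% mitochondrial UMIs. Esrrg was not called in those nuclei (−0.44, limma FDR = 0.168), and it lost its call with edgeR (FDR 0.107) and with no term for the pool (0.137). Nrf1 (−0.20), Gabpa (0.06), Esrra (0.20) and Tfam (0.39), which packages mitochondrial DNA, were not called, nor was Cycs (0.43), the cytochrome c that carries electrons from complex III to complex IV. The direction of Ppargc1a and Esrrg was the opposite of the member median.

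Of 19 glycolysis genes tested in astrocytes 1 was lower, where 0.909% of all genes were: Pfkp, the platelet-type phosphofructokinase, at 204.5 to 338 CPM (median 293) in WT and 148 to 262 CPM (median 188) in SOD1G93A mice (−0.59, SE 0.13, limma FDR = 0.0192), with the call kept in 12 of 12 fits that left out 1 mouse. With the mitochondrial percent as a covariate it was at −0.25 and not called (limma FDR = 0.994), and in nuclei with at most 1% mitochondrial UMIs it was called at −0.73. Assembly factors (25 genes, median −0.04), genes of the tricarboxylic acid cycle (18 genes), electron carriers (12 genes) and proteasome subunits (33 genes) had 0 calls in astrocytes. In motor neurons 2 of 11 glycolysis genes were called higher and 0 lower, compared with 1.43% of all genes higher and 1.64% lower. Of the 11, 4 passed the filter by SOD1G93A mice alone, Aldoa among them with 0 WT mice at the level of the filter, and 6 by each genotype on its own, Pkm among them. None passed by WT mice alone, so the count of calls is not read as a result about glycolysis. Aldoa, the aldolase, was at 3.76 to 26.1 CPM (median 13.5) in WT and 18.5 to 116 CPM (median 55.7) in SOD1G93A mice (1.56, SE 0.43, limma FDR = 0.0812), and the pyruvate kinase Pkm at 29.7 to 75.2 CPM (median 37.2) and 36.2 to 135 CPM (median 73.8; 0.99, SE 0.29, limma FDR = 0.0946). Both overlapped between genotypes, and their calls were kept in 3 and 2 of 12 fits that left out 1 mouse (FDR 0.0133 to 0.231 and 0.0229 to 0.347). Both lost them with edgeR (FDR 0.109 and 0.196) and with no term for the pool (0.175 and 0.133), and Pkm also with DESeq2 (0.258), without the robust option (0.114) and when no genes were filtered out (0.208). The median mitochondrial percent was 1.76 in SOD1G93A and 0.170 in WT motor neurons, with overlap. With that percent as a covariate Aldoa was at 0.65 (limma FDR = 0.748) and Pkm at 0.24 (limma FDR = 0.848). In nuclei with at most 1% mitochondrial UMIs they were at 1.09 (limma FDR = 0.439) and 0.33 (limma FDR = 0.765), so that neither was called in either fit.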

How the data were processed

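The deposited counts are UMIs per gene and nucleus that the authors obtained with Cell Ranger 3.1 on the mm10 genome with introns included, and are not normalized. The submitters' processing notes also name bcl2fastq 2.20.0.422, STAR 2.5.1b, Seurat 4.0.3 and R 4.0.3, and the annotation version is not given in the sources used here. The authors assigned nuclei to mice by hashtag, removed nuclei with few genes, with over 10% mitochondrial UMIs or with an unclear hashtag, took mitochondrial genes out of the table, and deposited a mitochondrial percent for each nucleus (highest value 9.99). Cell types were theirs. Doublets within 1 mouse were not marked. The deposited table of integrated, normalized values was not used.

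UMIs were summed per mouse and type. As in the study's methods, genes were filtered with filterByExpr (minimum count 10), scaled with TMMwsp (edgeR 4.0.16) and tested with limma 3.58.1 (voom, lmFit, robust eBayes, two-sided) with terms for the 4 groups of sex and genotype and for the pool, with Benjamini-Hochberg adjustment over all genes of a type and a threshold of 0.1. The fits were tested on simulated data. The robust option was a choice made here. Levels and sums were not tested. DESeq2 1.42.0, R 4.3.3, Python 3.11.15 and pandas 2.3.3 were also used. Depth summed per mouse limited Schwann and meningeal nuclei, motor neurons, OPCs, fibroblasts and ependymal nuclei most, and intervals cover counting error only.

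The pools are labelled as batches A, B and C, and the nuclei of each pool were captured and made into a library together. Deviations of the members from their group means correlated between mice of the same pool with a median r of 0.450 in neurons (−0.268 between pools), 0.149 in astrocytes (−0.052) and 0.222 in oligodendrocytes (−0.071). Over all genes the median r within a pool was 0.246, 0.030 and 0.116, and in astrocytes 4 of 18 pairs were above 0.1. The replicate block for the pool is that of the study's model.

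Members and gene lists were chosen with earlier results of these data known. Genes named are the members with FDR < 0.1, up to 3 higher and 3 lower members of smallest p per type and contrast, isoform pairs, core members, called genes of the lists with 6 regulators and carriers, and Sod1. Not every member called in the comparison of types is named, since up to 71 were. Results on some single genes are not reported here. Alternatives were other tests, scalings and filters, no pool term, non-robust eBayes, a mitochondrial covariate, nuclei with at most 1% mitochondrial UMIs, and leaving out each mouse.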

Additional observations from a re-analysis of the deposited data

Results flagged for a closer look

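Of 70 groups of 5 or 6 mice tested for an outlying mouse with Dixon's ratio, 3 held such a mouse, and chance gives about 1 in 20 groups. Atp5e in WT neurons was highest at 11.9 CPM in the female of pool A, where the nearest mouse had 7.75 CPM. The summed level of the members in SOD1G93A astrocytes was highest at 5513 CPM in the male of pool A (nearest 4082), and in SOD1G93A microglia at 1887 CPM in the same mouse (nearest 1442).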

How the results depend on the processing

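Of the values of single genes under the alternatives, 943 kept their direction and side of the threshold, 84 lost their call, 2 gained one and 10 changed sign. The 943 include genes without a call in the main fit that stayed uncalled, and Sod1. They are therefore no measure of how firm the calls of members between genotypes are. Of the counts and summed levels, 293 stayed and 49 moved, where a count stayed within 1.5 times and a summed level within the SD of its mice. The astrocyte call between genotypes (1 member) went to 0 with edgeR, DESeq2, no filter, a minimum count of 30, no replicate block for the pool, non-robust eBayes, the mitochondrial covariate and nuclei with at most 1% mitochondrial UMIs, and to 2 without scaling, with 0 to 6 on leaving out 1 mouse. At a minimum count of 30 Ndufa11 was not among the genes tested, and DESeq2 gave it no FDR. Without the filter, motor neurons had 2 calls instead of 0, with 0 to 2 on leaving out 1 mouse. For motor neurons against neurons, the higher count (1) was 0 with edgeR, DESeq2, no scaling, no replicate block and nuclei with at most 1%, and 7 without the filter (0 to 1 on leaving out 1 mouse). The lower count (8) was 20 without scaling, 26 without the filter and 15 without the block (4 to 9). Shares of all genes called under the alternatives are not given in this section, so a count that moved is not read as a result about the members. The lower count in astrocytes (0) was 1 with edgeR, DESeq2, no filter and nuclei with at most 1% (0 to 1). Without the block the higher count in oligodendrocytes was 10 instead of 17. In endothelial nuclei with at most 1% the higher count was 34 instead of 64, and the lower count 3 instead of 7, as without scaling. In Schwann and meningeal nuclei the lower count was 1 instead of 2 without scaling. With the mitochondrial covariate signs turned for Ndufa11 (−0.13), Cox7c (−0.27) and Esrrg (0.13) in astrocytes and for Cox5a (−0.46), Atp5o (0.062) and Ndufa10 (0.0015) in motor neurons. Cox7b2 against neurons was 1.51 in endothelial nuclei with at most 1% (FDR 0.0197 instead of a lower call), but those 7 WT nuclei held 0 of its UMIs, so this is a product of the fit at low depth and no measure of expression. On leaving out 1 mouse Ndufa10 in motor neurons went from −0.33 to 0.023 (the latter on dropping female A of SOD1G93A), Sdhd in endothelial nuclei from −0.40 to 0.53 (−0.40 on dropping female B of SOD1G93A) and Ndufa12 there from −0.32 to 0.64 (−0.32 on dropping male B of WT). The cause was not tested. Counts of members by sex, by the interaction, and by genotype in the other 8 types and the 9 sub-types were 0 in all settings run. Ependymal nuclei with at most 1% could not be fitted.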
